A study of Mus musculus with 6 samples.

Results

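The genes described here are 9 complement components and regulators, C1ra, C1s1, C4b, Masp1, C3, Cfb, Serping1, Cd55 and Cd59a, out of 56953 genes in an RNA sequencing table of mouse embryonic fibroblasts (MEFs). They were chosen by name, and each was found in the table by its Ensembl identifier. The study compared MEFs labelled WT with MEFs labelled GαqKO, 3 libraries each, to ask what loss of Gαq, a G protein subunit that couples receptors to phospholipase C, changes in fibroblasts. By the study's methods the second line was made as a knockout of both Gαq and the closely related Gα11. No drug or other agent was given to either group, both were grown in DMEM with fetal bovine serum, and neither age nor passage is stated. Each genotype was represented by 1 line of MEFs, so a difference between genotypes and a difference between lines cannot be told apart.

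Complement is a cascade of plasma and tissue proteins that tags targets for clearance and can open pores in membranes. In the classical pathway the proteases C1r and C1s cleave C4 and C2, in the lectin pathway the MASP proteases do so after a lectin binds sugars, and in the alternative pathway factor B joins deposited C3. All 3 routes meet at C3, and inhibitors in fluid (such as C1 inhibitor) and on membranes (CD55, CD59) hold them back. The liver makes most plasma complement, while fibroblasts are known to make several of the early components locally.

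All values are normalized counts, which are the reads on a gene after division by 1 scaling factor for each library. A gene was tested if 3 or more libraries had 10 or more normalized counts of it, with limma on log2(normalized count + 1), and a gene was called at an adjusted p under 0.05. A value of 3 normalized counts or fewer was treated as the floor, which covers counting error only. Of the 14096 genes tested, 65.8% were called in either direction, and 20.7% were called with a log2 fold change over 1 in size, so a call alone was common in this comparison. The libraries held 9853000 to 12229175 reads on genes where these could be recovered. Gnaq, the gene of Gαq, was not lower in the libraries labelled GαqKO but was called slightly higher (limma adjusted p = 0.00212). It had 1691 ± 48.5 normalized counts in WT and 1926 ± 36.0 in GαqKO (SD, n = 3 each, log2 fold change 0.19). Gna11, the gene of Gα11, fell from 2148 ± 29.0 to 451.6 ± 28.7 (± SD, 3 libraries each). At the protein level, the study reported a lack of Gαq in the GαqKO line by Western blot and immunofluorescence. Because a gene count does not show whether a transcript encodes protein, the names WT and GαqKO are used here as the labels of the libraries. Ddx3y, a gene of the Y chromosome, had 1197 ± 52.3 normalized counts in WT (SD, n = 3) and was at 0 in each GαqKO library, so the lines also differ in this respect.

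Of 10 fibroblast markers, 9 reached 10 normalized counts in every library, and Thy1 did so only in GαqKO and was at the floor in WT. Of the list, 5 markers were called higher in GαqKO and 5 lower. Pdgfra (19.6 ± 2.2 and 2320 ± 42.0 normalized counts) and Dcn (32.1 ± 3.0 and 1663 ± 53.8, ± SD, 3 libraries each) were far higher in GαqKO. The summed level, most of it from Vim, Col1a1, Col1a2 and Fn1, ran the other way, from 84406.1 to 90166.7 in WT and from 62921.2 to 66195.9 in GαqKO. Of 10 leukocyte markers, 3 reached 10 normalized counts, with a summed level of 210.6 to 225.3 in WT and 441.3 to 471.8 in GαqKO, and Itgam, Tyrobp and C1qa were at the floor in every library. The rise in the leukocyte sum came from Cd14, at 101.7 ± 7.0 and 364.5 ± 3.2 normalized counts (± SD, 3 libraries each). Cd68 went the other way, from 93.0 ± 9.9 to 66.9 ± 12.7 normalized counts (limma adjusted p = 0.0296). Csf1r, at 15.6 ± 4.8 and 11.1 ± 3.6 normalized counts (± SD, 3 libraries each), was not called. Of 6 hepatocyte markers, 1 reached 10 normalized counts, with a summed level of 37.8 to 49.1 in WT and 15.9 to 27.7 in GαqKO. Of 5 endothelial markers, 1 reached 10 normalized counts, with 12.6 to 23.4 in WT and 15.0 to 25.5 in GαqKO. Of 6 epithelial markers, 4 reached 10 normalized counts, and these moved with the groups, from a summed level of 515.1 to 540.8 in WT down to 10.0 to 23.2 in GαqKO, carried by Cdh1 and Krt14. The part of these differences in the complement values was not tested, and in bulk RNA fewer cells that use a gene cannot be told apart from less RNA per cell.

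The 9 genes fell into 2 sets. C1ra, C1s1 and C3 were higher in GαqKO than in WT MEFs and Masp1 was lower, each by more than the spread between libraries, whereas C4b, Cfb, Serping1, Cd55 and Cd59a were near the floor in both lines and were not tested. C3 had 18.4-fold and C1s1 15.5-fold higher values in GαqKO on the log2(normalized count + 1) scale, C1ra 3.65-fold higher values, and Masp1 3.44-fold lower values. Thus 3 of the 4 tested members were called higher and 1 lower, all past a log2 fold change of 1. Over all genes tested, 31.8% were called higher and 34.1% lower, and 10.2% and 10.5% were so past a log2 fold change of 1. C1s1 reached the filter on low values in 1 WT library and C3 in 2, so both entered through the GαqKO libraries where they were high, and the count of called members is a description.

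**Figure D1:**
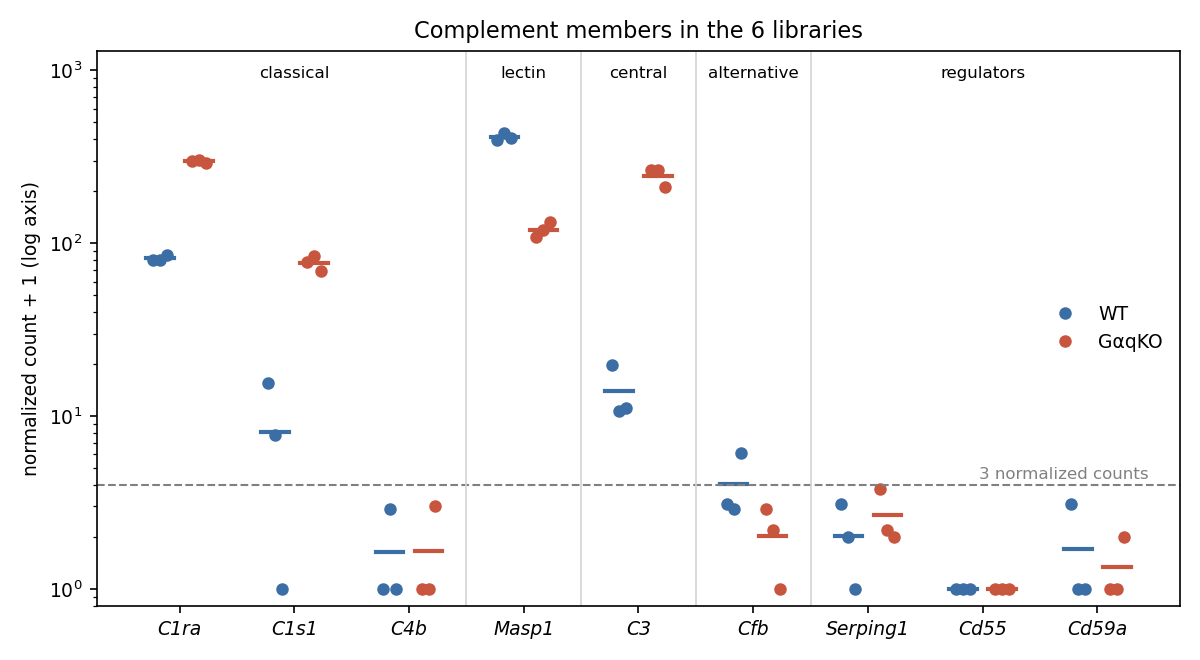
Normalized counts plus 1 (log axis) of the 9 complement genes in each library, with WT in blue, GαqKO in red, a point per library and a bar at the group mean. The WT and GαqKO points of C1ra, C1s1, Masp1 and C3 are apart, and those of C4b, Serping1, Cd55 and Cd59a lie at or below 3 normalized counts (dashed line).

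C1ra (ENSMUSG00000055172.11, GRCm39 chromosome 6, 124489364 to 124500402, plus strand) encodes C1r, the protease that activates C1s within the C1 complex. It had 79.4, 78.7 and 84.5 normalized counts in the 3 WT libraries and 299.5, 302.9 and 291.0 in the 3 GαqKO libraries. The libraries of each line lay close together, with a coefficient of variation of 3.9% in WT and 2.1% in GαqKO, and the groups did not overlap. Groups without overlap were seen for 69.6% of all genes tested. The log2 fold change was 1.87 (95% interval 1.63 to 2.10, limma adjusted p = 3.57e-09), and 11.0% of the genes tested had a larger change in size. C1rb, a near copy of C1ra, shares 21.4% of the distinct 150-base stretches of the C1ra transcripts, and its own values did not go above 3.1 normalized counts in any library. None of the exon bases of C1ra overlap exons of another gene.

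C1s1 (ENSMUSG00000038521.18, chromosome 6, 124507297 to 124559389, minus strand) encodes C1s, the protease that cleaves C4 and C2. In WT it was near the floor and uneven, with 14.6, 6.8 and 0.0 normalized counts. In GαqKO it had 77.0, 83.2 and 68.5 normalized counts, all above the highest WT library. The log2 fold change was 3.96 (95% interval 2.42 to 5.50, limma adjusted p = 0.000246). Its size rested on the WT libraries, since it was 2.80 without WT replicate 3 and 4.79 without WT replicate 1, while the direction and the call held in both. On the 5 libraries without GαqKO replicate 3, limma gave a log2 fold change of 4.03, edgeR 3.49 and DESeq2 3.5. Over 14 alternatives the adjusted p of C1s1 ran from 1.49e-06 (limma with a pseudocount of 5) to 0.0376 (DESeq2 on 5 libraries). Of the exon bases of C1s1, 72.4% lie within the spans of other genes and 16.6% within their exons, and the part of this overlap in its values was not tested. C1s2, the near copy of C1s1, reached at most 6.9 normalized counts.

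The promoter windows of C3 and C1s1 are shown because these members rose most, each as the 250 bases before an annotated start from the RefSeq promoter table (GRCm38.p6), located by exact match in GRCm39. Capitals mark a match to the C/EBP motif TTGCNNAA on either strand. C3 is given at chr17:57535137-57535386 and C1s1 at chr6:124519319-124519568, both on the minus strand and written 5′ to 3′.
C3: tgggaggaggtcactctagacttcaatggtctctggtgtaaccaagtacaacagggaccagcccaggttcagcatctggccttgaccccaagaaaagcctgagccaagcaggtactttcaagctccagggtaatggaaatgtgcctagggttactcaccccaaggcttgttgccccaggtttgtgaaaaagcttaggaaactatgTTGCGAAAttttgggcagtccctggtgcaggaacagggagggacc
C1s1: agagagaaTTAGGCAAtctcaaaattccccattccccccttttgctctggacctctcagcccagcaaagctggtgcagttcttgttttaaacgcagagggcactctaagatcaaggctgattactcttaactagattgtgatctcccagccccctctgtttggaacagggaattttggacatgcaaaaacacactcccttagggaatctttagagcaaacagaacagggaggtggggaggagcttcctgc
The match in C3 starts 45 bases before the start and reads TTGCGAAA on the strand of the gene, and the match in C1s1 starts 242 bases before the start on the opposite strand. C/EBP matches stood in 9.6% of the 32851 promoter windows searched, and in 2 of the 4 windows of C1ra, C1s1 and C3. Of these 4 windows, 2 belong to C1s1 and largely overlap, and the C1s1 window shown is the one with the match, the other having none. Of the 250 bases of the C1ra window, 216 lie in annotated exons of C1ra, so it is mostly transcribed sequence. The C3 window has 19 bases in annotated exons of C3. The other motifs searched on both strands were a TATA box (letters TATAAA, in 12.4% of windows), the NF-kappaB motif (7.3%), the STAT motif TTCNNNGAA (7.0%), the interferon-stimulated response element (3.0%), AP-1 (TGANTCA, 6.7%) and the SRF CArG box (1.5%), with no match in these 4 windows. A match is a run of letters and was not tested as a site. The table held windows for 5 of the 9 members, and Masp1, C4b, Cfb and Serping1 were not among them.

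C4b (ENSMUSG00000073418.5, chromosome 17, 34947354 to 34962912, minus strand) encodes C4, the substrate of C1s. It had 0.0, 1.9 and 0.0 normalized counts in WT and 0.0, 0.0 and 2.0 in GαqKO, at the floor in every library. A difference was not detectable at these counts. The canonical transcript of C4b has 41 exons, the longest of 248 bases, and 12.6% of its 150-base windows lie within a single exon. The aligner named by the authors does not split reads across introns, and the part of this in the values of C4b was not tested. Its near copy C4a was read in all 6 libraries, at 48.0 ± 6.4 normalized counts in WT and 22.9 ± 8.8 in GαqKO (± SD, 3 libraries each), and 4.9% of the distinct 150-base stretches of C4b are shared with it. For C4a, 11.0% of the 150-base windows lie within a single exon. Of its exon bases, 66.3% lie within the spans of other genes and 26.5% within their exons, and the part of this in its values was not tested. The log2 fold change of C4a was -1.11 (limma adjusted p = 0.00501). It was -0.77 without GαqKO replicate 3, the lowest library at 13.1 normalized counts, and DESeq2 on 5 libraries did not call it (adjusted p = 0.0754, the highest of 15 alternatives that went down to 0.00118).

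Masp1 (ENSMUSG00000022887.10, chromosome 16, 23268167 to 23339779, minus strand) is the lectin pathway member, and alternative splicing of the gene yields proteases and a shorter protein without protease activity that a gene-level count does not separate. It had 392.6, 432.3 and 406.1 normalized counts in WT and 107.0, 119.1 and 130.9 in GαqKO. Every GαqKO library was below every WT library, with a coefficient of variation of 4.9% in WT and 10.0% in GαqKO. The log2 fold change was -1.78 (95% interval -2.0 to -1.56, limma adjusted p = 3.39e-09), and 11.5% of the genes tested had a larger change in size. Masp1 was thus the only one of the 4 tested members that fell. It shares no 150-base stretch with another gene. Masp2, the protease that cleaves C4 and C2 in this pathway, was at 36.2 ± 5.4 and 20.1 ± 1.4 normalized counts (mean ± SD of 3 libraries each), with a log2 fold change of -0.81 (limma adjusted p = 0.011, DESeq2 on 5 libraries 0.0857, over all alternatives 0.00256 to 0.0857), and 60.3% of its exon bases lie in exons of another gene. The lectins and ficolins that carry these proteases (Mbl1, Mbl2, Fcna, Fcnb and Colec11) were at the floor in every library, and Colec10 reached at most 5.2 normalized counts.

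C3 (ENSMUSG00000024164.16, chromosome 17, 57510964 to 57535155, minus strand) encodes the central component whose cleavage products coat targets. It had 18.8, 9.7 and 10.2 normalized counts in WT and 263.9, 263.6 and 209.5 in GαqKO. The lowest GαqKO library stood far above the highest WT library, and the WT values were low, though all above the floor. The log2 fold change of C3 was 4.20 (95% interval 3.68 to 4.72, limma adjusted p = 3.11e-09), and 3.48% of all genes tested had a larger one in size. C3 and C1s1 cannot be ranked by it, since C1s1 was ahead with a pseudocount of 0.5 (4.33 against 4.26) and without WT replicate 1 (4.79 against 4.49) or WT replicate 2 (4.28 against 4.04). Leaving out each library in turn gave 4.04 to 4.49. The canonical transcript of C3 has 41 exons, the longest of 213 bases, and 9.8% of its 150-base windows lie within a single exon. The median over 11801 tested protein-coding genes was 66.7%, and 0.898% of these genes had a lower share than C3. The aligner named by the authors does not split reads across introns, and the part of this in the level of C3 was not tested.

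Cfb (ENSMUSG00000090231.11, chromosome 17, 35074852 to 35081559, minus strand) encodes factor B, the protease subunit of the alternative pathway C3 convertase. It had 2.1, 1.9 and 5.1 normalized counts in WT and 1.9, 1.2 and 0.0 in GαqKO. WT replicate 3 alone was above the floor, and no fold is given. All exon bases of Cfb lie within the spans of other genes and 78.2% within their exons, and 54.2% of its distinct 150-base stretches occur in the transcripts of Gm20547 and Nelfe. Protein-coding genes with every exon base inside another gene's span were at 0 in 65.8% of 2000 cases over all 6 libraries, against 29.9% of 8745 genes without overlap. The part of this overlap in the values of Cfb was not tested.

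Serping1, Cd55 and Cd59a are the regulators among the 9 members, and none was detected above the floor in any library. Serping1 (ENSMUSG00000023224.13, chromosome 2, 84595705 to 84620873, minus strand) encodes C1 inhibitor, which inactivates C1r, C1s and the MASP proteases. It had 2.1, 1.0 and 0.0 normalized counts in WT and 2.8, 1.2 and 1.0 in GαqKO. Its exons overlap no other gene and share no 150-base stretch with one. Cd55 (ENSMUSG00000026399.13, chromosome 1, 130366469 to 130390926, minus strand), whose product speeds the decay of C3 convertases, was listed at 0 in all 6 libraries. Cd59a (ENSMUSG00000032679.13, chromosome 2, 103926132 to 103947029, plus strand), whose product blocks the last step of pore formation, had 2.1, 0.0 and 0.0 normalized counts in WT and 0.0, 0.0 and 1.0 in GαqKO. The groups overlapped for these 3 genes, and no fold is given since both groups were at the floor. The near copies Cd55b and Cd59b were also at the floor in every library. A difference between the lines was not detectable at these counts for Serping1, Cd55 or Cd59a.

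Levels can be compared between members only per length, here as normalized counts per kilobase of all annotated exons of the gene. In WT, Masp1 was highest at 30.1 ± 1.48 per kilobase and C1ra next at 25.4 ± 0.994, and their libraries did not overlap (28.8 to 31.7 and 24.7 to 26.5, n = 3 each). C3 (1.87 to 3.63 per kilobase) and C1s1 (0.0 to 4.21) followed and did not differ beyond their spread. In GαqKO, C1ra was highest at 93.4 ± 1.92 per kilobase, then C3 at 47.4 ± 6.05, C1s1 at 22.0 ± 2.14 and Masp1 at 8.73 ± 0.875 (± SD, 3 libraries each). By this length no neighbours in that order overlapped between libraries. By this length Masp1 went from first in WT to last of the 4 in GαqKO. Neither length allows for reads lost across introns. Of the 150-base windows of the canonical transcript, 9.8% lie within a single exon for C3. The share is 53.5% for C1ra, 50.8% for C1s1 and 64.3% for Masp1. The part of this in the place of C3 in either line was not tested. The annotated exons of Masp1 add up to 13.63 kb, against 5345 bases in its canonical transcript. By canonical length Masp1 was at 76.8 normalized counts per kilobase in WT and 22.3 in GαqKO. C1s1 was then at 26.1 in GαqKO, and the GαqKO libraries overlapped, with the lowest of C1s1 at 23.5 and the highest of Masp1 at 24.5 per kilobase, so the order of these 2 genes in GαqKO depends on the length used. For the regulators the floor itself corresponds to 0.988 per kilobase for Serping1, 0.508 for Cd55 and 0.477 for Cd59a, below the mean of each of the 4 members in either line.

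The balance of C1ra to C1s1 within a library was compared as a log2 ratio of normalized counts plus 1. It was 2.36, 3.35 and 6.42 in WT and 1.95, 1.85 and 2.07 in GαqKO. The groups did not overlap, with a difference of -2.09, and the exact permutation test (two-sided) gave p = 0.1, the smallest that 3 against 3 libraries allow, and 0.1 after adjustment over the 2 ratios computed. The WT ratios were spread widely, with C1s1 near the floor there, and without WT replicate 3 the difference was -0.90. The ratio of Masp1 to Masp2, added after seeing the data, was 3.65, 3.37 and 3.40 in WT and 2.32, 2.62 and 2.57 in GαqKO, a difference of -0.97 (exact permutation p = 0.1, adjusted 0.1). The ratio was lower in every GαqKO library than in any WT library, and 0.1 is again the smallest p that this exact test can give with 3 against 3 libraries. Ratios with Serping1, Cd55 or Cfb were not computed, since those genes were at or near the floor.

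**Figure D2:**
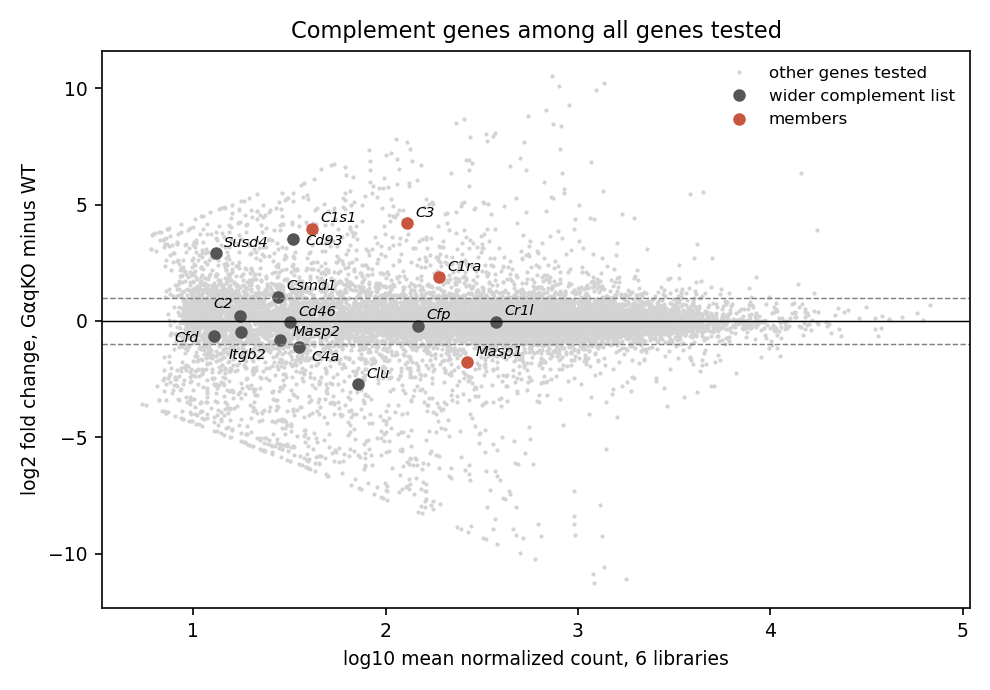
The log2 fold change (GαqKO minus WT) of the 14096 genes tested against the log10 of their mean normalized count over 6 libraries, with the 4 tested members in red and the other 12 tested genes of a wider complement list in dark grey. C3, C1s1 and C1ra lie above the dashed line at 1 and Masp1 below the line at -1, and Cr1l and Cfp lie near 0.

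The rest of the pathway was described with a list of 53 complement genes that includes the 9 members, of which 16 were tested. In GαqKO, 5 of these were called higher (C1ra, C1s1, C3, Susd4 and Cd93), 4 were called lower (C4a, Masp1, Masp2 and Clu) and 7 were not called. The 9 called of 16 stand beside 65.8% called over all genes tested (31.8% higher and 34.1% lower), so the share of the list was not above the background. The median log2 fold change of the 16 was -0.05, against -0.01 over all genes tested, and the median size was 1.07 against 0.39. Without the members, 12 genes were tested, with 2 called higher, 3 called lower and 7 not called, a median of -0.13 and a median size of 0.73. Susd4 and Cd93 reached the filter only through the GαqKO libraries and C1s1 and C3 mainly so, and such genes had to differ, so the median sizes are a description.

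**Figure D3:**
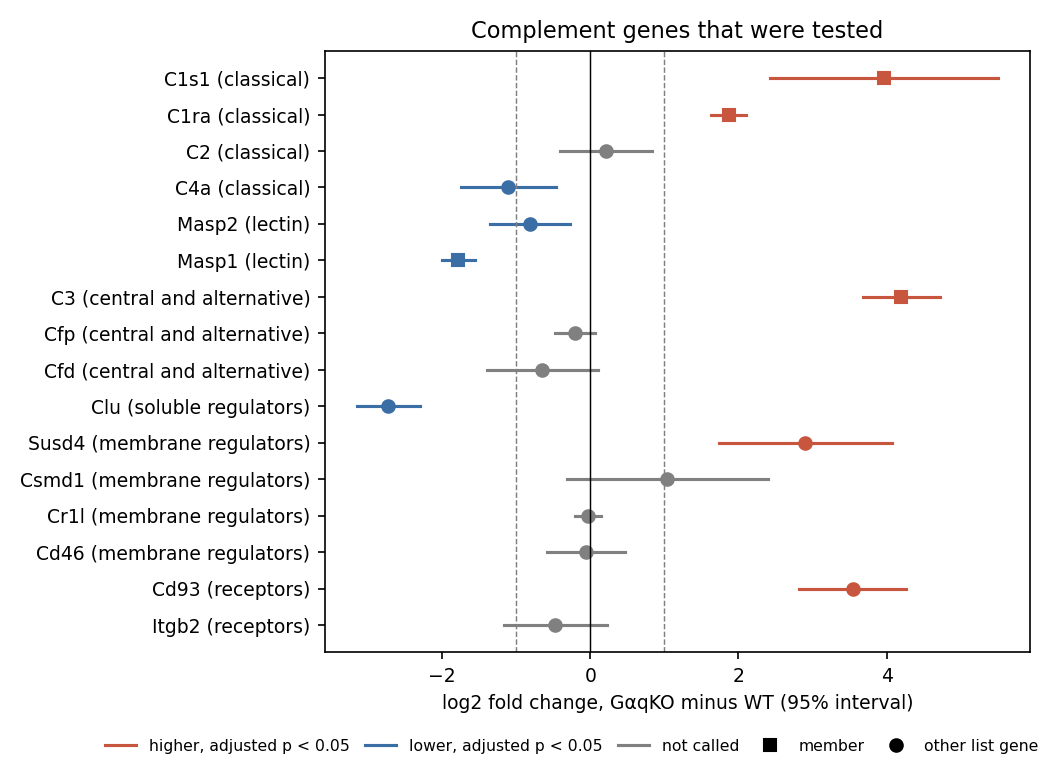
Log2 fold change (GαqKO minus WT) with its 95% interval from limma for the 16 tested complement genes, grouped by class, with squares for members and circles for other genes of the list. Intervals to the right of 0 belong to genes called higher (red), those to the left to genes called lower (blue), and grey intervals cross 0.

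The regulators of the wider list that were read did not move together. Clu, the gene of clusterin, an extracellular chaperone that also binds terminal complement complexes, fell from 125.3 ± 13.4 to 18.0 ± 1.6 (mean ± SD of 3 libraries each), with a log2 fold change of -2.73 (limma adjusted p = 3.29e-08). No library of Clu overlapped between the groups. Susd4, a membrane inhibitor of C3 convertases, had 7.3, 1.0 and 1.0 normalized counts in WT and 20.7, 25.4 and 23.2 in GαqKO, a log2 fold change of 2.90 (limma adjusted p = 0.000313) that was 3.59 without WT replicate 1.

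Cr1l, the gene of the rodent membrane inhibitor Crry, had the highest level per length among the tested regulators in both lines, at 30.5 normalized counts per kilobase of exon in WT and 29.8 in GαqKO. Its 379.1 ± 18.0 and 370.4 ± 25.6 normalized counts (± SD, 3 libraries each) overlapped, and the log2 fold change was -0.03 with a 95% interval of -0.21 to 0.14. Cd46, a membrane cofactor for C3b cleavage, likewise overlapped, with 32.6 ± 5.8 and 31.2 ± 4.5 normalized counts (± SD, 3 libraries each) and a 95% interval of -0.59 to 0.47 for its log2 fold change. Csmd1 varied widely within each line, from 3.9 to 36.5 normalized counts in WT and from 15.1 to 62.4 in GαqKO, and was not called (limma adjusted p = 0.163). Membrane regulators were therefore read in both lines through Cr1l and Cd46, while Cd55 and Cd59a were not.

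In the alternative pathway, Cfp, the gene of properdin that stabilizes the convertase, had 157.9 ± 13.3 normalized counts in WT and 137.5 ± 16.3 in GαqKO (± SD, 3 libraries each) and was not called (limma adjusted p = 0.183). Cfd, the gene of factor D that cleaves factor B, had 15.9 ± 3.8 and 9.7 ± 1.8 normalized counts (± SD, 3 libraries each) and was not called either (limma adjusted p = 0.117). C2, the classical pathway partner of C4, had 16.2 ± 0.6 and 18.9 ± 1.7 normalized counts (± SD, 3 libraries each), with a 95% interval of -0.41 to 0.83 for the log2 fold change. Of the exon bases of C2, 96.2% lie within the spans of other genes and 42.8% within their exons. Of its 150-base windows, 18.1% lie within a single exon, and the part of these limits in its values was not tested. C3 was therefore the only called gene among the 3 tested of the central and alternative class, although Cfd was called when limma was run without a trend in the prior spread (adjusted p = 0.0357).

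The start and the end of the cascade were scarcely read. C1qa, C1qb and C1qc, the genes of the recognition subunit that carries C1r and C1s, were at the floor in every library. None of the 7 genes of the terminal pathway was tested, and Hc, the gene of C5, had 3.1, 0.0 and 0.0 normalized counts in WT and 7.5, 20.8 and 13.1 in GαqKO, below the filter on low values. C9, also below it, went the other way, with 10.4, 18.5 and 5.1 normalized counts in WT and 1.9, 4.6 and 3.0 in GαqKO, and C8g was above the floor in all 6 libraries with groups that overlapped. Over the whole list, 23 of 53 genes were at the floor in every library and 4 (Fcna, Fcnb, Cd55 and Itgam) were listed at 0 throughout. Among the receptors, Cd93, a C-type lectin-like membrane protein once described as a C1q receptor, rose from 4.4 ± 1.6 to 61.2 ± 15.4 normalized counts (mean ± SD of 3 libraries each), with a log2 fold change of 3.54 (limma adjusted p = 5.38e-07). Itgb2, the shared beta chain of the complement receptors on leukocytes, had 20.9 ± 6.6 and 14.5 ± 2.6 normalized counts (± SD, 3 libraries each) and was not called (limma adjusted p = 0.216).

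**Figure D4:**
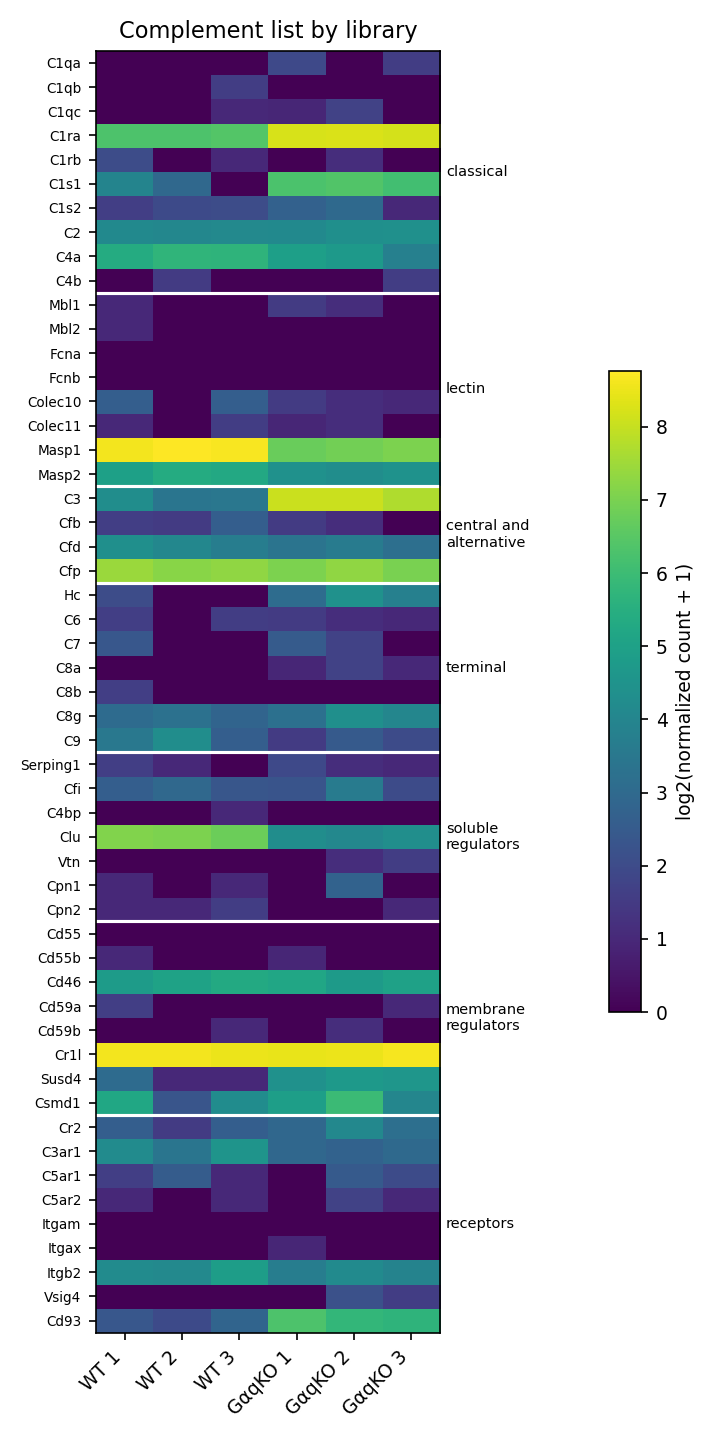
Log2(normalized count + 1) of the 53 complement genes (rows, by class) in the 6 libraries (columns), from dark at 0 to yellow at the highest level. C1ra, C1s1, C3 and Cd93 are brighter in GαqKO, Masp1 and Clu are brighter in WT, and 23 genes are at 3 normalized counts or fewer throughout.

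C1ra and C1s1 lie next to each other on chromosome 6, so the genes around them were read as well. Within 250 kb of C1ra, 9 genes were tested, of which 4 were called higher and 2 lower, a share close to the 65.8% called over all genes tested. Past a log2 fold change of 1 were C1s1 and C1rl, a gene for a C1r-like protease, which rose from 31.4 ± 2.8 to 94.9 ± 4.1 normalized counts (mean ± SD of 3 libraries each), with a log2 fold change of 1.57 (limma adjusted p = 4.07e-06). C1rl, named after its values were seen, has 40.2% of its exon bases in exons of another gene. Around C3, 10 genes were tested within the same distance and none passed a log2 fold change of 1 in size. Around Masp1, 3 genes were tested, and St6gal1 and Rtp4 were past it, 1 in each direction. The median log2 fold change of all tested genes was 0.06 on chromosome 6, -0.19 on chromosome 16 and -0.01 on chromosome 17, against -0.01 over all chromosomes. The part of chromosome position in the values of the members was not tested.

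The genes with the pattern nearest to C3 over the 6 libraries, by Euclidean distance between centred log2 values, were Xkr5 (0.36), Hecw2 (0.45) and Cytip (0.51). Xkr5 had means of 21.7 normalized counts in WT and 396.8 in GαqKO, so it shared the steep step between the lines. Nearest to Masp1 were Cpt1c (0.14), Arhgef19 (0.17) and Lce1f (0.17), with Cpt1c at 260.8 and 79.8 normalized counts. The 6 libraries form 2 groups, so nearness here is mainly likeness in the step between WT and GαqKO.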

How the data were processed

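RNA was measured in 3 libraries labelled WT and 3 labelled GαqKO, which the study describes as biological replicates. The authors selected poly-A RNA, prepared libraries with a stranded kit, mapped paired reads of 150 bases with Rbowtie2 (GRCm39), and obtained gene counts from featureCounts of Rsubread and GENCODE release 32. The authors deposited the values as a signal, namely normalized counts from DESeq2. Tool versions and the strand setting are not given in the sources used here, so overlapping genes on opposite strands may not be told apart. Symbols, exons and coordinates came from GENCODE release 39, which matched 98.9% of the identifiers.

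The 9 members, the wider list and the marker lists were chosen with earlier results of these data known, and adjusted p-values are over all genes tested. Named are the members, every tested gene of the wider list, Gnaq and Gna11, the 3 genes nearest in pattern to the members that rose and fell most, and leading markers. A gene of the wider list is not reported here and enters none of its counts. Ddx3y, C1rl, Hc, C9, C8g and the near copies were named after their values were seen, as were St6gal1 and Rtp4.

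The main test was limma 3.58.1 with a trend in the prior spread, two-sided, on log2(normalized count + 1), without covariates, and p-values were adjusted by Benjamini-Hochberg. Fold changes are on that scale, which can give low genes a smaller or a larger change than a test on reads. Whole reads could be recovered for 5 libraries, where 100.0% of values above 0 came out whole (tolerance 0.01), and edgeR 4.0.16 and DESeq2 1.42.0 were run on those reads. With limma without GαqKO replicate 3 on the same libraries, 1426 genes were higher and 1570 lower past both thresholds, with edgeR 1460 and 1554, and with DESeq2 1351 and 1487. Scripts were tested on simulated data before use. Python 3.11.15, numpy 2.4.6, pandas 2.3.3, scipy 1.17.1, matplotlib 3.10.9 and R 4.3.3 were used. The alternatives covered scaling, filter, pseudocount, prior spread, replicate block, test, fold threshold and each library left out.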

Additional observations from a re-analysis of the deposited data

How the results depend on the processing

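C1ra, C1s1, C3 and Masp1 kept their direction and their call wherever they were tested. A filter of 10 or more normalized counts in all 6 libraries left 2 members tested, so the members called higher went from 3 to 1 and the wider list from 5 to 1 with and without the fold threshold, while genes past both thresholds over the whole table went to 831 higher and 765 lower. DESeq2 on 5 libraries called 2 genes of the wider list lower in place of 4, losing C4a and Masp2. Without GαqKO replicate 2, 5 genes of the wider list were lower past both thresholds in place of 3. In every run on 5 libraries, edgeR and DESeq2 included, the filter asked for 2 libraries in place of 3. From 18 to 20 genes of the wider list were then tested, against 16, so these counts can include genes that the main test left out. Testing against a log2 fold change of 1 with limma's treat left 847 genes higher and 1027 lower over the whole table, with the members at 3 higher and 1 lower. Leaving out single libraries, the members stayed at 3 higher and 1 lower, the wider list had 5 to 7 higher and 4 to 6 lower (3 to 5 past both thresholds), and the whole table had 1426 to 1545 higher and 1492 to 1603 lower past both thresholds and 4142 to 4452 higher and 4475 to 4661 lower at the adjusted p alone. Of 234 single-gene values over 16 complement genes, 229 kept their side of the threshold and none reversed. Cfd was called without a trend in the prior spread (adjusted p = 0.0357), and Csmd1 by edgeR (0.04) and without WT replicate 1 (0.0359).

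Same-numbered WT and GαqKO libraries did not deviate together (correlations of -0.082, -0.016 and -0.058 over 10033 genes). This cannot show whether the libraries were prepared in pairs, which is not stated. With the replicate number as a block, 3 members were higher and 1 lower, the wider list had 5 and 4, and over all genes 4324 were higher and 4638 lower, 1421 and 1478 past both thresholds. The difference in the log2 ratio of C1ra to C1s1 was -2.09 with the block, and it ranged from -2.93 to -0.90 with each library left out, that of Masp1 to Masp2 from -1.03 to -0.88. The 5 members that were not tested had a highest value of 5.1 normalized counts, and the part of depth in their low values was not tested.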
